A study of Homo sapiens with 9 samples.

Results

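A set of 10 genes that encode proteins of the nuclear lamina and of the high mobility group (HMG) of chromatin proteins were followed in A549 cells, a human lung adenocarcinoma line, after inhibition of protein arginine methyltransferases (PRMTs). The 10 genes were picked by name, with earlier results of these data known. The lamina genes were the A-type lamin gene LMNA, the B-type lamin genes LMNB1 and LMNB2 and the lamin B receptor LBR. The HMG genes were HMGB1, HMGB2, HMGB3, HMGA1, HMGA2 and HMGN2. The set makes up 10 of 51796 gene identifiers in the count table, and all 10 were among the 18292 genes tested. RNA was measured in 9 libraries: 3 from DMSO controls, 3 from cells given the PRMT5 inhibitor GSK591 and 3 from cells given the type I PRMT inhibitor MS023, each inhibitor at 1 µM over 7 days. PRMT5 places symmetric dimethyl marks on arginine, and the type I enzymes place asymmetric dimethyl marks. All groups were the same line, and the samples carried no genetic change between them. The treated plates were seeded with 2 times as many cells as the control plates, so seeding and treatment cannot be told apart in any comparison with DMSO; the 2 inhibitor groups shared one seeding. The labels call the samples of a group triplicates and do not say whether these came from separate cultures, so p-values measure the spread between these samples, which may be technical.

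Lamins are intermediate filament proteins that form a meshwork under the inner nuclear membrane. A-type lamins add stiffness to the nucleus, B-type lamins remain bound to the membrane through a farnesyl anchor, and LBR is a membrane protein that binds lamin B and heterochromatin and also acts as a sterol reductase. HMGB proteins bend DNA through HMG boxes, HMGA proteins bind AT-rich DNA through AT hooks, and HMGN proteins bind nucleosomes. Loss of LMNB1 is widely used as a sign of cellular senescence, falls of LBR and HMGB2 have been described there too, HMGB1 leaves the nucleus of senescent cells, and HMGA proteins have been found in senescence-associated heterochromatin.

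Total counts per library ran from 31398075 to 51244525. Levels are given as CPM, counts scaled to a fixed library total after adjustment of the library sizes by the trimmed mean of M values (TMM), and a gene was called changed at a Benjamini-Hochberg adjusted p under 0.05 in edgeR's quasi-likelihood test over all 18292 genes. The smallest count of any of the 10 genes in a library was 1523 (HMGB2), so low counts did not limit their values. The epithelial label was matched by keratin RNA (KRT8, 2984 CPM in DMSO, 4083 with GSK591 and 2576 with MS023). EPCAM was low and moved the other way, at 13.5, 6.43 and 21.0 CPM in that order. The sum of the 6 epithelial markers ran from 6402 to 6528 CPM with DMSO, 7687 to 7952 with GSK591 and 5133 to 5331 with MS023. Of 6 alveolar type 2 markers 5, SFTPC and NKX2-1 among them, stayed under 1 CPM in all libraries. The other, ABCA3, measured 48.9 CPM with DMSO, 63.9 with GSK591 and 25.6 with MS023, and was called under both inhibitors. Of 8 leukocyte markers 5 stayed under 1 CPM in all libraries; MS4A1 had no count and the pan-leukocyte gene PTPRC 6 counts over the 9 libraries. The summed leukocyte list ran from 11.2 to 12.8 CPM with DMSO, 15.3 to 15.5 with GSK591 and 8.74 to 9.89 with MS023, with CD14 at 8.27, 7.46 and 6.40 CPM and ITGAM at 2.77, 6.84 and 1.54 CPM in that order. Of 7 fibroblast and endothelial markers 4 stayed under 1 CPM, and their sum ran from 15.3 to 18.1, 10.4 to 12.1 and 28.4 to 32.1 CPM in the same order. The part of these markers in the results was not tested. One library, GSK591 replicate 3, stood apart with 933 CPM of mitochondrial ribosomal RNA against 0.410 to 20.7 CPM in the others. Without that library, all 9 calls of the 10 genes against DMSO in GSK591 cells stood. DMSO replicate 1 also differed more from DMSO replicates 2 and 3 (chi-square per degree of freedom 37.2 and 33.6) than these did from each other (7.10). For GSK591 replicate 3 the values were 54.1 and 87.0, against 14.0 between GSK591 replicates 1 and 2.

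The promoter sequences below show where the genes start and which short motifs of cell cycle control lie there. The motifs searched on both strands were the cell cycle homology region (CHR, TTTGAA), the CCAAT box (CCAAT) and 4 forms of the E2F site (TTTGGCGC, TTTCGCGC, TTTCCCGC and TTTGGCGG). Each window held the 250 bases before an annotated start in RefSeq (GRCh38.p14), and 8 of the 10 genes had an entry. Of 35116 such windows, 32% held a CCAAT box, 2.93% held 3 or more, 13.3% held a CHR and 2.83% held an E2F form; none of the motifs overlapped another in the windows printed. The 5 windows were chosen after the matches were seen: 4 belong to genes that fell with GSK591 and the last to LMNA, which rose. Each is written 5′ to 3′ on the gene's strand, up to the first annotated exon base, with the motif letters in capitals.
HMGB3, chrX:150983085-150983285, plus strand: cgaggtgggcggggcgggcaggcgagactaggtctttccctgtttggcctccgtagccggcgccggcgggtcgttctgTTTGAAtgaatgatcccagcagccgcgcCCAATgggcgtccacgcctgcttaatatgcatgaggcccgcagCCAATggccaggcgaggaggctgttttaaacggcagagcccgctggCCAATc
HMGB1, chr13:30465966-30466186, minus strand: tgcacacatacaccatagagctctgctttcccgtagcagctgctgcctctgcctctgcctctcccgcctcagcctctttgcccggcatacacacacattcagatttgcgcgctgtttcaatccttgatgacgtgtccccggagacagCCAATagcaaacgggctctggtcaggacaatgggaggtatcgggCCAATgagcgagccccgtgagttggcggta
HMGN2, chr1:26472190-26472439, plus strand: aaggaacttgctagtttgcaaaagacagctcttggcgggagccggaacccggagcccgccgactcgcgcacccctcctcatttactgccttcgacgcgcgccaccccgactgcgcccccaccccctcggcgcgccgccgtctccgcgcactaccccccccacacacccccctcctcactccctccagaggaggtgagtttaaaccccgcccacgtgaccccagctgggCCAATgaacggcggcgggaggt
LMNB2, chr19:2456997-2457209, minus strand: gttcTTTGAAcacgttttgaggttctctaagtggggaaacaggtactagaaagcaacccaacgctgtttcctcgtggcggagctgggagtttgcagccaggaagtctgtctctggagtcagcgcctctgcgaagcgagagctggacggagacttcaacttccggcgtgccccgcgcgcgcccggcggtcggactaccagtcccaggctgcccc
LMNA, chr1:156082323-156082572, plus strand: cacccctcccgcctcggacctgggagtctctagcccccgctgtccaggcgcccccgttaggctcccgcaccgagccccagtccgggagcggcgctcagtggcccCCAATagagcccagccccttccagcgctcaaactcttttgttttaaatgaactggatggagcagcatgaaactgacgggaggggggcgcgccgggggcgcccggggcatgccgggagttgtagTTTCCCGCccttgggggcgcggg
In the HMGB3 window a CHR lay 172 bases before the start and 3 CCAAT boxes lay 144, 101 and 55 bases before it, counted to the first letter of each. The HMGB1 window held CCAAT boxes 103 and 59 bases before the start. Another box, 28 bases before the start, lies in annotated HMGB1 exon sequence and is not printed. The LMNB2 window held a CHR, the HMGN2 window a single CCAAT box, and the LMNA window a CCAAT box and an E2F form (TTTCCCGC) in capitals. The first windows of LMNB1, LBR and HMGA1 held none of these letters; LMNB1 and LBR fell with GSK591 as well. At other annotated starts, the second windows of LMNB1 and HMGA1 each held a CCAAT box and the second HMGB1 window a CHR and a CCAAT box. A match is a description of the sequence and not a binding site.

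GSK591 was the inhibitor under which most of these genes moved. Of the 10 genes, 8 fell (LMNB1, LMNB2, LBR, HMGB1, HMGB2, HMGB3, HMGA2 and HMGN2), LMNA rose, and HMGA1 was not called. The background was wide: 62.6% of all tested genes were called, 32.4% lower and 30.1% higher. The median log2 change of the 10 genes was -0.68, against 0.01 over all tested genes, and 6.93% of tested genes had a log2 change below that median. Because the 10 genes were chosen with earlier results of these data known, these comparisons with all genes describe the set and do not test it. The GSK591 and DMSO libraries did not overlap for the same 9 genes, as for 65.6% of all tested genes. A fall of at least 2-fold was called for 2.68% of tested genes and for HMGB1, HMGB2 and HMGB3. Because bulk RNA was measured, fewer cells with an RNA and less of it per cell cannot be told apart.

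**Figure D1:**
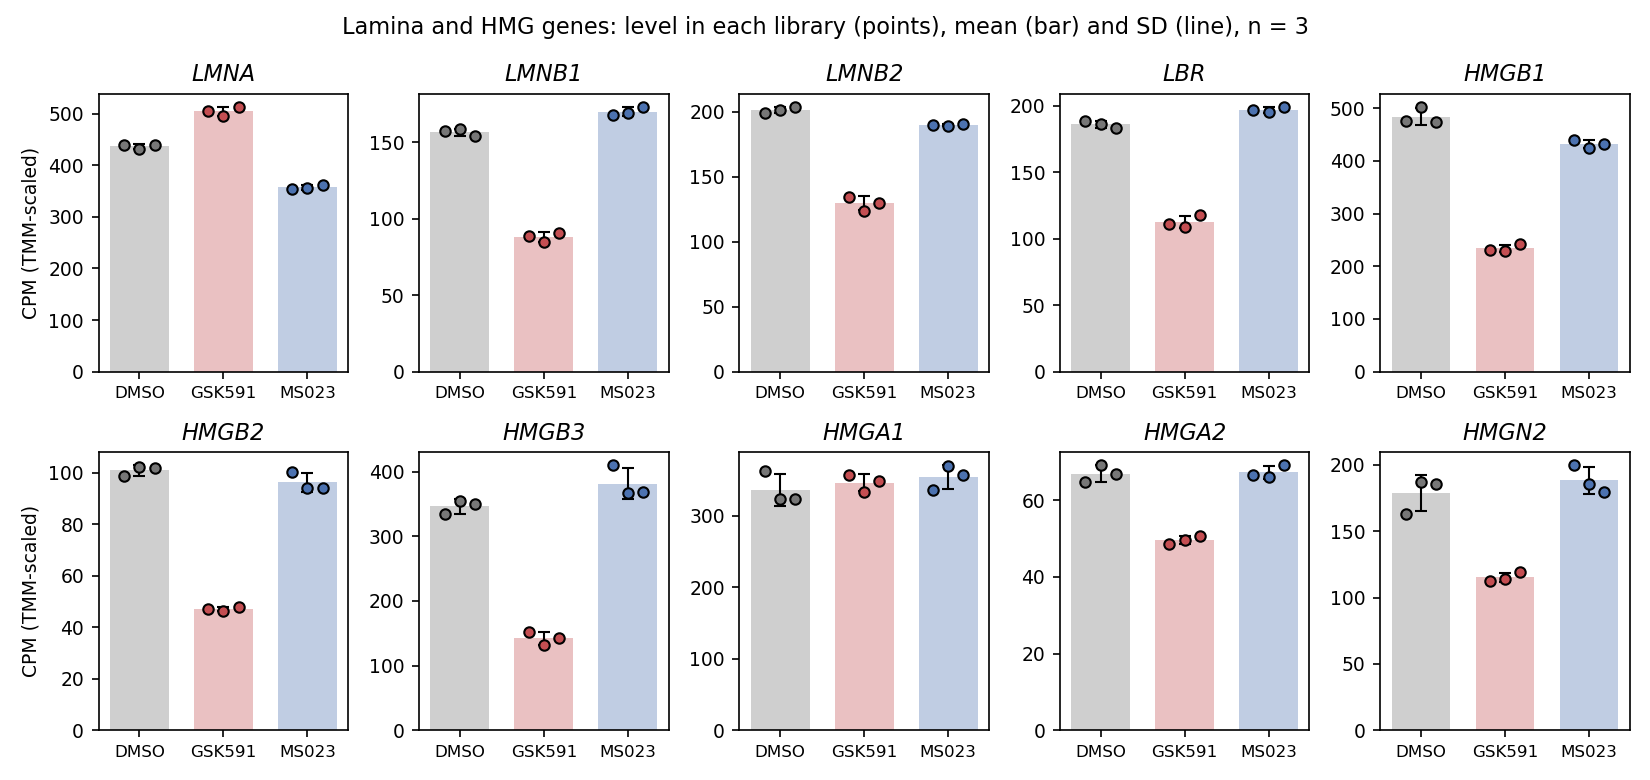
Level of each of the 10 genes in CPM (linear axes from 0, one panel per gene) in the 3 libraries of each group; points are libraries, bars are means and lines are SDs. GSK591 libraries of LMNB1 sit between 84.9 and 91.0 CPM, below all DMSO libraries (154 to 159), those of LMNA sit above, and the HMGA1 points of all groups intermix.

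LMNA (ENSG00000160789, hg19 chr1:156052364-156109880), the gene of lamins A and C, measured 438.5, 431.6 and 439.9 CPM in the DMSO libraries and 505.5, 494.7 and 512.9 CPM in the GSK591 libraries. Every GSK591 library lay above every DMSO library. The difference was 0.21 ± 0.03 on the log2 scale (SE, n = 3 per group, edgeR adjusted p = 7.00e-05), a 1.16-fold rise. In MS023 libraries LMNA measured 353.4, 356.3 and 361.5 CPM, below every DMSO library, and the fall was 0.29 ± 0.03 (edgeR adjusted p = 4.80e-06). LMNA was thus called in opposite directions under the 2 inhibitors, as were 13.4% of all tested genes. Compared directly, MS023 cells held 1.41-fold less LMNA RNA than GSK591 cells (log2 difference -0.50 ± 0.03, edgeR adjusted p = 5.61e-09).

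Both B-type lamin genes fell with GSK591. LMNB1 (ENSG00000113368, hg19 chr5:126112315-126172712) measured 157.2, 158.8 and 154.1 CPM with DMSO and 88.8, 84.9 and 91.0 CPM with GSK591. The groups were far apart relative to their spread, and the fall was 0.83 ± 0.04 on the log2 scale, or 1.78-fold (edgeR adjusted p = 9.96e-11). LMNB2 (ENSG00000176619, hg19 chr19:2427636-2456994) fell by 0.64 ± 0.04, from 201 ± 2.31 to 129 ± 5.32 CPM (mean ± SD, n = 3; edgeR adjusted p = 1.77e-09). With MS023 the LMNB1 libraries measured 167.7, 169.0 and 173.4 CPM, all above the DMSO libraries. That rise was small, 0.12 ± 0.04 (edgeR adjusted p = 0.0135), and leaving out DMSO replicate 3 or MS023 replicate 3 ended the call (adjusted p of 0.0549 and 0.0866). LMNB2 was not called with MS023: it measured 189.7, 188.7 and 190.2 CPM, below all 3 DMSO libraries (199.0 to 203.6), with a log2 difference of -0.09 and a 95% interval from -0.17 to -0.01 (edgeR adjusted p = 0.0615). Without GSK591 replicate 2, a library of neither group compared, its adjusted p was 0.0251.

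LBR (ENSG00000143815, hg19 chr1:225589204-225616627) measured 188.5, 186.1 and 183.7 CPM with DMSO, 111.4, 109.0 and 117.8 CPM with GSK591 and 197.1, 195.1 and 199.4 CPM with MS023. The GSK591 libraries were the lowest and the MS023 libraries the highest, with no overlap between any groups. The fall with GSK591 was 0.72 ± 0.04 on the log2 scale, 1.65-fold (edgeR adjusted p = 4.62e-10). The difference with MS023, 0.08 with a 95% interval from 0.0045 to 0.16, was not called (edgeR adjusted p = 0.0729). Fits that left out DMSO replicate 1, GSK591 replicate 1 or GSK591 replicate 3 called LBR higher, with adjusted p of 0.0353, 0.0350 and 0.0254.

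The 3 HMGB genes fell the most of the 10 genes in GSK591 cells. HMGB3 (ENSG00000029993, hg19 chrX:150148982-150159248), which is known for its expression in stem and progenitor cells, measured 334.1, 355.4 and 349.4 CPM with DMSO and 151.4, 132.5 and 142.2 CPM with GSK591. Its fall was 1.29 ± 0.06 on the log2 scale, or 2.44-fold (edgeR adjusted p = 7.57e-11). HMGB2 (ENSG00000164104, hg19 chr4:174252846-174256276), a nuclear DNA-bending protein of proliferating cells, measured 98.7, 102.5 and 101.8 CPM with DMSO and 47.3, 46.5 and 48.0 CPM with GSK591. Its fall was 1.10 ± 0.04, or 2.14-fold (edgeR adjusted p = 6.76e-12). HMGB1 (ENSG00000189403, hg19 chr13:31032884-31191734), a chromatin protein that acts as an alarm signal outside the cell, fell from 484 ± 16.3 to 234 ± 7.18 CPM (mean ± SD, n = 3), by 1.05 ± 0.04 or 2.07-fold (edgeR adjusted p = 2.22e-11). In each of the 3 genes every GSK591 library lay below every DMSO library.

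With MS023 the 3 HMGB genes parted. HMGB1 measured 439.8, 424.8 and 432.0 CPM, all below the DMSO libraries (473.2 to 502.9), and fell by 0.16 ± 0.04 on the log2 scale (edgeR adjusted p = 2.61e-03). On the log2(FPKM + 1) scale limma called a larger difference, -0.33. HMGB2 measured 100.5, 94.4 and 94.2 CPM, which overlapped DMSO, with a log2 difference of -0.07 and an interval from -0.14 to 0.01 (edgeR adjusted p = 0.120). Without MS023 replicate 1 the HMGB2 difference passed (adjusted p = 0.0425). HMGB3 measured 410.1, 367.2 and 368.0 CPM, above the DMSO libraries, and was called higher by 0.14 ± 0.05 (edgeR adjusted p = 0.0424). MS023 replicate 1 gave the highest HMGB3 value, and the call was lost without it (adjusted p = 0.200), without DMSO replicate 1 (0.0716) and without DMSO replicate 3 (0.0765). On the log2(FPKM + 1) scale of the authors' values the HMGB3 difference was 0.02 and not called (limma adjusted p = 0.845).

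HMGA1 (ENSG00000137309, hg19 chr6:34204650-34214008), the AT-hook protein abundant in many carcinomas, was the gene with the smallest fitted change under GSK591. It measured 362.9, 324.0 and 323.3 CPM with DMSO, 356.9, 334.0 and 348.8 CPM with GSK591, and 336.1, 369.5 and 356.8 CPM with MS023. The 3 groups overlapped. The log2 difference from DMSO was 0.04 with GSK591 (95% interval -0.07 to 0.15, edgeR adjusted p = 0.496) and 0.07 with MS023 (-0.04 to 0.18, adjusted p = 0.252). The interval with GSK591 excludes a fall of the size seen in HMGA2. DMSO replicate 1 was the highest of its group, and without it HMGA1 was called higher with GSK591 (0.11, adjusted p = 0.0425) and with MS023 (0.15, adjusted p = 0.0156).

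HMGA2 (ENSG00000149948, hg19 chr12:66217911-66360075), an embryonic AT-hook protein and a target of the let-7 microRNAs, had the lowest level of the 10 genes per transcript length (FPKM) in each group. It measured 64.9, 69.1 and 67.0 CPM with DMSO and 48.6, 49.7 and 50.8 CPM with GSK591. The fall was 0.43 ± 0.04 on the log2 scale, or 1.35-fold (edgeR adjusted p = 1.59e-07). With MS023 it measured 66.6, 66.1 and 69.2 CPM, which overlapped the DMSO libraries, and the log2 difference lay between -0.08 and 0.09 at 95% (edgeR adjusted p = 0.919). HMGN2 (ENSG00000198830, hg19 chr1:26798941-26802463), a nucleosome-binding protein, measured 163.0, 187.5 and 185.4 CPM with DMSO and 112.7, 114.2 and 119.0 CPM with GSK591. Its fall was 0.63 ± 0.05, or 1.55-fold (edgeR adjusted p = 1.19e-07). With MS023 it measured 199.8, 185.8 and 179.6 CPM, which overlapped DMSO (0.08, interval -0.04 to 0.19, edgeR adjusted p = 0.254).

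**Figure D2:**
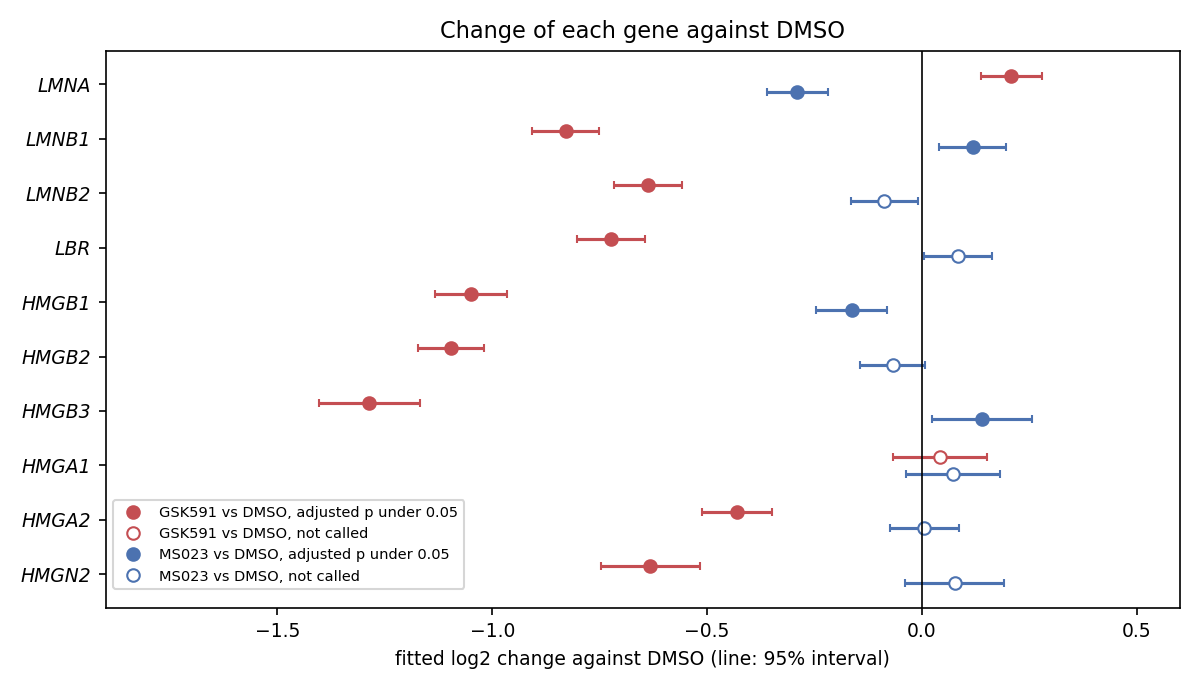
Fitted log2 change of each gene against DMSO with GSK591 (red) and MS023 (blue); lines are 95% intervals and filled points passed an adjusted p under 0.05. GSK591 values run from -1.29 for HMGB3 to 0.21 for LMNA, and MS023 values from -0.29 for LMNA to 0.14 for HMGB3.

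With MS023, 2 of the 10 genes were called higher than with DMSO (LMNB1 and HMGB3), 2 were called lower (LMNA and HMGB1) and 6 were not called. Over all tested genes 51.0% were called, 25.1% higher and 25.9% lower, so 4 of 10 is near the background. Their median log2 difference was 0.04. The 3 MS023 libraries lay apart from the DMSO libraries in 6 of the 10 genes, 3 higher and 3 lower, as in 57.5% of all tested genes.

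The direct comparison of the 2 inhibitors is between groups that shared one seeding number. In MS023 cells 8 of the 10 genes were higher than in GSK591 cells and LMNA was lower, against 65.4% of all tested genes called (33.6% higher and 31.7% lower). The libraries of the 2 inhibitors did not overlap for the same 9 genes, against 70.5% of all tested genes (36.1% higher and 34.5% lower). The median log2 difference was 0.76. HMGB3 differed most, 2.69-fold (log2 difference 1.43 ± 0.06, edgeR adjusted p = 1.33e-11), followed by HMGB2 at 2.04-fold, LMNB1 at 1.93-fold, HMGB1 at 1.85-fold, LBR at 1.75-fold, HMGN2 at 1.63-fold, LMNB2 at 1.46-fold and HMGA2 at 1.35-fold. HMGA1 did not separate the inhibitors (log2 difference 0.03, interval -0.08 to 0.14, edgeR adjusted p = 0.610). Both a fall with GSK591 and a lower level in GSK591 than in MS023 cells were called in 8 of the 10 genes and in 23.7% of all tested genes. An F-test over the 3 groups called 78.1% of tested genes and every one of the 10 except HMGA1 (edgeR adjusted p = 0.412).

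Levels of different genes were compared on the authors' FPKM scale, which divides by transcript length. With DMSO the order was HMGB1 (283 ± 15.7 FPKM, mean ± SD, n = 3), HMGB3 (178 ± 12.6), LMNA (165 ± 1.09), HMGA1 (154 ± 8.52), HMGN2 (144 ± 13.6), HMGB2 (80.0 ± 3.48), LMNB1 (60.4 ± 3.14), LBR (43.1 ± 0.71), LMNB2 (35.6 ± 1.12) and HMGA2 (15.5 ± 2.26). The libraries of HMGB3 and LMNA overlapped, as did those of HMGA1 and HMGN2, so those neighbours have no order. With GSK591, LMNA led at 185 ± 3.62 FPKM, then HMGA1 at 156 ± 5.17 and HMGB1 at 120 ± 1.75, with HMGN2 at 91.9, HMGB3 at 63.7, LMNB1 at 37.3, HMGB2 at 36.4, LBR at 28.1, LMNB2 at 22.8 and HMGA2 at 11. Among neighbours in that order, only LMNB1 and HMGB2 overlapped. With MS023, HMGB1 again came first (225 ± 9.96 FPKM), then HMGB3 (182), HMGA1 (164), HMGN2 (153), LMNA (130 ± 1.03), HMGB2 (76.4), LMNB1 (68.4), LBR (47.6), LMNB2 (34.0) and HMGA2 (14.9). HMGB3 overlapped HMGA1, and HMGA1 overlapped HMGN2. All these orders, and which gene came first, depend on the length used. By counts over the length of all annotated exons, HMGA1 stood above LMNA with GSK591. On that measure HMGB3 stood above HMGB1 in every group.

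The mix of lamin RNAs followed from these levels and is given as a description. LMNA made up 63.2 ± 0.78% of the summed lamin FPKM with DMSO, 75.5 ± 0.61% with GSK591 and 56.1 ± 0.96% with MS023 (mean ± SD, n = 3). LMNB1 made up 23.2%, 15.2% and 29.3%, and LMNB2 13.7%, 9.29% and 14.6%, in the same order. The libraries of the 3 groups did not overlap in the LMNA share. The ratio of LMNA to LMNB1 was 2.60, 2.68 and 2.92 in the DMSO libraries, 4.74, 5.00 and 5.17 with GSK591 and 2.05, 1.87 and 1.82 with MS023. Counts divided by the length of all annotated exons gave lower LMNA shares in the same order of groups, 52.0%, 67.6% and 46.5%, and LMNB2 shares of 21.6%, 15.6% and 22.2%, so the size of the shares depends on the length used. Among the HMGB genes, HMGB3 held 32.9 ± 0.78% of the summed FPKM with DMSO, 28.9 ± 0.47% with GSK591 and 37.5 ± 1.94% with MS023. By counts per exon length HMGB3 held more than HMGB1 in every group (43.8% against 31.2% with DMSO), so the order of those genes depends on the length used.

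**Figure D3:**
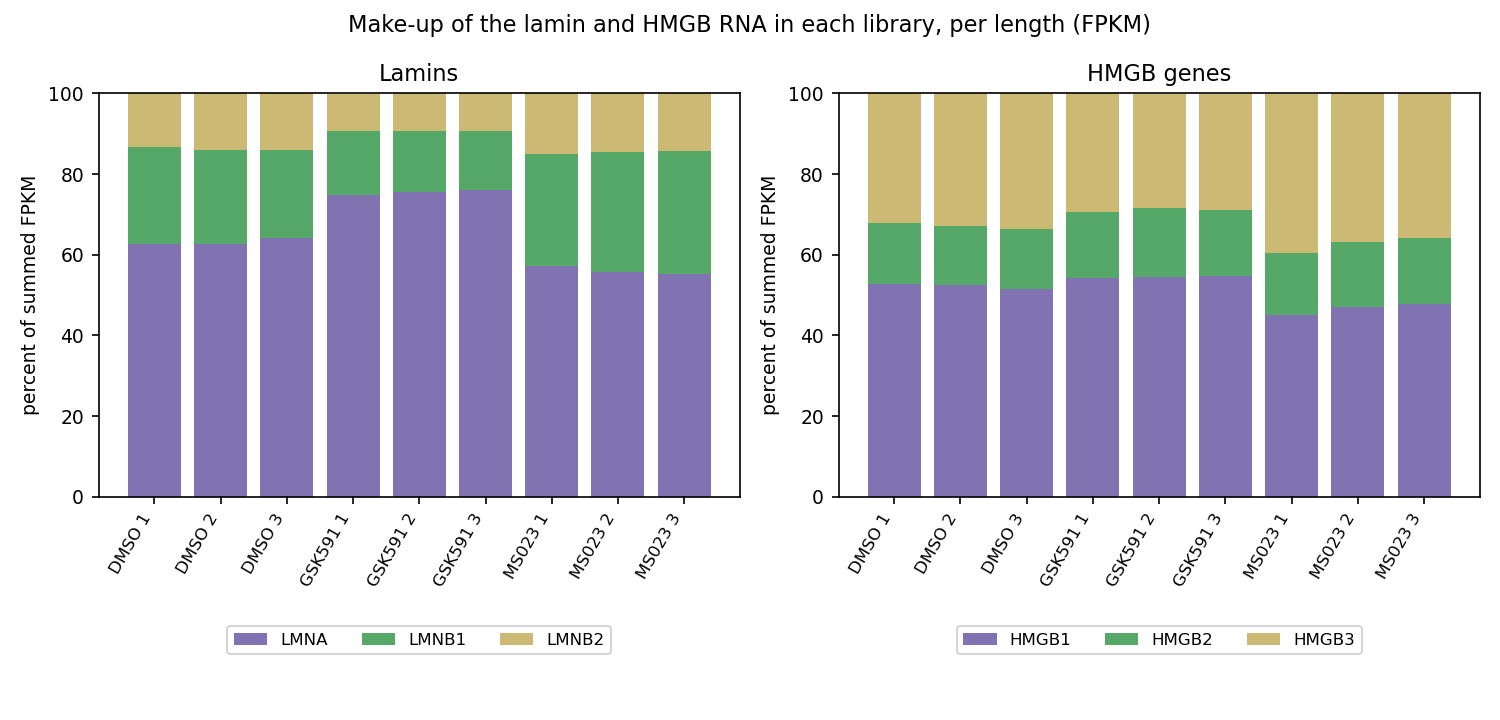
Share of each lamin gene (left) and each HMGB gene (right) in the summed FPKM of its family, in percent, for each of the 9 libraries. The LMNA share is 74.8 to 76.0% in the GSK591 libraries, 62.7 to 64.1% with DMSO and 55.3 to 57.1% with MS023.

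The profiles of the 10 genes over the 9 libraries were compared by the root mean square (RMS) difference of centred log2 CPM, a description with no test. The closest pairs were LMNB1 with LBR (0.06) and HMGB1 with HMGB2 (0.06), then LBR with HMGN2 (0.09) and LMNB2 with HMGA2 (0.10). The pair furthest apart was LMNA with HMGB3 (0.83). Among 10554 candidate genes, TMPO, the gene of the LEM-domain lamina proteins called LAP2, was nearest to LMNB1 (RMS difference 0.03), followed by GINS2. TMPO fell from 438 to 246 CPM with GSK591 and measured 479 CPM with MS023. The nearest genes to LBR were SKA2 and LDLRAD4, to LMNB2 KCTD15 and RAB3D, and to LMNA GNL3L and PPP3CA, at 0.01 to 0.03. For HMGB1 they were ANLN and SPAG5, for HMGB2 PDLIM5 and BLM, and for HMGB3 ETHE1 and HIST1H4E, the last 2 at 0.07 and 0.08. HMGA2 was nearest to NUMB and STK3, and HMGN2 to CEP152 and H2AFV. HMGA1 was nearest to FARSA and HSF1, but its own profile spanned an RMS of only 0.07, so little separated it from any flat gene.

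Processed copies were sought by name (the gene's symbol followed by P and digits) and were found for 4 of the genes. Copies listed under other names were missed. Reads of a gene can be misassigned to its copies. The table held 41 named copies of HMGB1, with 3.12% as many reads as HMGB1 itself and at most 3.89% in any library, and 33 copies of HMGN2, with 3.89% and at most 4.50%. For HMGB3 the share was 0.209% and for HMGA1 0.302%. The summed HMGB1 copies measured 15.3 ± 1.54 CPM with DMSO, 8.96 ± 0.41 with GSK591 and 11.5 ± 2.33 with MS023 (mean ± SD, n = 3). The copies did not move as one: of 7 tested with GSK591, 2 were called higher and 2 lower, against 62.6% of all tested genes called. How many reads of these copies stem from the parent genes was not tested, and the values of the copies are uncertain.

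Genes of the same nuclear compartment moved mostly downward with GSK591. Counts of called genes in this and the following lists stand against 62.6% of all tested genes called with GSK591 (30.1% higher, 32.4% lower) and 51.0% with MS023 (25.1% higher, 25.9% lower). Of 21 tested genes of the inner nuclear membrane and of the LINC complex, which ties the lamina to the cytoskeleton, 15 fell and 4 rose, with a median log2 change of -0.32. NRM, the gene of nurim, fell by 0.85 ± 0.07 (edgeR adjusted p = 6.11e-08) and TMPO by 0.83 ± 0.04 (4.95e-10). SYNE1, the gene of the nuclear envelope spectrin nesprin-1, rose from 45.5 ± 2.17 to 136 ± 9.08 CPM with GSK591 (log2 change 1.58 ± 0.05, edgeR adjusted p = 4.34e-12) and fell to 31.8 ± 0.67 CPM with MS023 (-0.52 ± 0.05, 8.51e-07), a fall that limma on FPKM did not call. SYNE4 rose from 0.915 to 1.91 CPM with GSK591. The count of 4 became 2 without DMSO replicate 3 or without GSK591 replicate 1. With MS023 5 rose, among them SUN2 (0.25 ± 0.05, edgeR adjusted p = 5.07e-04) and TMEM201 (0.50 ± 0.07, 2.71e-05), and 9 fell, among them TMEM43, the gene of LUMA (-0.50 ± 0.04, 1.26e-07). The count of 5 became 3 without MS023 replicate 3. With GSK591 both SUN2 and TMEM43 were lower than with DMSO, at 25.0 against 43.0 CPM and 67.7 against 87.3 CPM.

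A list of the enzymes that finish lamins, by farnesylation, cleavage and methylation, together with the prelamin A-binding protein NARF, had 6 tested genes. With GSK591 4 fell and with MS023 3 fell. The count of genes called higher was 0 for both inhibitors in edgeR's test, 0 at an unadjusted p under 0.05 and 0 in DESeq2, but 1 for either inhibitor without DMSO replicate 1, and 1 for MS023 in limma on filtered FPKM. ICMT, the carboxyl methyltransferase of farnesylated proteins, fell from 136 ± 2.99 CPM to 88.7 ± 1.95 with GSK591 (-0.62 ± 0.03, edgeR adjusted p = 8.24e-10) and to 108 ± 2.16 with MS023 (-0.33 ± 0.03, 1.14e-06). NARF, which binds prenylated prelamin A, fell by 0.50 ± 0.04 with GSK591 and by 0.31 ± 0.04 with MS023.

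Among 16 other tested genes of the HMG families and of proteins with an HMG box, 12 fell and 3 rose with GSK591 (median log2 change -0.35), and 4 fell and 5 rose with MS023 (median 0.00). TOX3, which encodes an HMG-box protein, fell from 6.04 ± 0.53 to 1.65 ± 0.19 CPM with GSK591 (-1.86 ± 0.11, edgeR adjusted p = 1.60e-09) and rose to 18.2 ± 0.85 CPM with MS023 (1.59 ± 0.08, 6.47e-10). SSRP1, a subunit of the histone chaperone FACT, fell by 0.58 ± 0.04 with GSK591. HMGN5 rose from 8.44 ± 1.03 to 15.6 ± 0.68 CPM with MS023 (0.89 ± 0.08, edgeR adjusted p = 7.30e-07), while HMGN1 fell by 0.26 ± 0.05 and TFAM, the mitochondrial member with HMG boxes, by 0.35 ± 0.05. With GSK591 these genes fell too, HMGN1 by 0.48 ± 0.05 and TFAM by 0.46 ± 0.05.

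A list of chromatin proteins put together around LBR and the lamina, such as the HP1 proteins, H3K9 methyltransferases and CTCF, had 14 tested genes. With GSK591 9 fell (median -0.20). None was called higher in edgeR, nor at an unadjusted p under 0.05, in DESeq2 or in limma on FPKM, but total-count scaling and a filter of 1 CPM each called 2 higher, and the fit without DMSO replicate 1 called 1. SUV39H2, an H3K9 methyltransferase, fell from 39.1 to 21.5 CPM (-0.86 ± 0.04, edgeR adjusted p = 2.23e-10) and CBX1, the gene of HP1 beta, by 0.56 ± 0.06. With MS023 5 rose and 3 fell (median 0.01), and CBX3, the gene of HP1 gamma, was among those that fell (-0.31 ± 0.06, edgeR adjusted p = 5.41e-04). The 5 became 3 without MS023 replicate 2. CBX3 measured 324 CPM with DMSO, 224 with GSK591 and 262 with MS023, so it was lower under both inhibitors. Of 8 sterol genes related to the reductase activity of LBR, 2 rose and 3 fell with GSK591. That is 5 of 8 called, about the share over all tested genes (62.6%). With MS023 5 of the 8 rose, against 25.1% of all tested genes called higher and 51.0% called in either direction. None was called lower with MS023 in edgeR, at an unadjusted p under 0.05, in DESeq2 or in limma on FPKM. TM7SF2, which encodes the C14 sterol reductase that shares its activity with LBR, rose with GSK591 from 11.4 ± 1.02 to 16.3 ± 0.56 CPM (0.53 ± 0.07, edgeR adjusted p = 1.25e-05), while LBR fell. The count of 2 became 1 without DMSO replicate 3.

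For HMGA2, genes of the let-7 axis were examined: let-7 host genes and processing factors, Argonautes and other let-7 targets. Of 22 tested genes, 12 fell and 4 rose with GSK591 (median -0.11) and 6 fell and 10 rose with MS023 (median 0.09). The let-7 host transcript listed as FLJ27365 (MIRLET7BHG) rose with GSK591 from 9.0 ± 0.72 to 15.2 ± 0.32 CPM (0.76 ± 0.07, edgeR adjusted p = 1.71e-07) and with MS023 to 11 ± 0.44 CPM (0.29 ± 0.07, 2.27e-03). The targets IGF2BP2 and CDC25A fell with GSK591 by 0.56 ± 0.04 and 0.58 ± 0.05. Other targets rose with GSK591: CCND1, the gene of cyclin D1 and named here after its values were seen, from 340 to 572 CPM (0.75 ± 0.03), and CCND2 from 0.0890 to 2.16 CPM (4.57 ± 0.31, edgeR adjusted p = 9.63e-09), a change that was smaller on log2(FPKM + 1) at such low levels. LIN28B, a blocker of let-7 maturation, fell from 26.2 CPM to 20.7 with GSK591 (-0.34 ± 0.05) and to 20.6 with MS023 (-0.35 ± 0.05). Mature let-7 was not measured. For HMGB1, 10 receptor and ligand genes were tested. With GSK591 7 rose and 2 fell, but most stood under 1 CPM: with a filter of 1 CPM in 3 libraries the count of 7 was 3. With MS023 5 fell, and none was called higher in edgeR, at an unadjusted p under 0.05, in DESeq2 or in limma on FPKM. THBD, a surface protein that binds HMGB1, rose from 20.5 ± 1.98 to 44.0 ± 0.86 CPM with GSK591 (1.11 ± 0.06, edgeR adjusted p = 4.99e-10) and fell to 8.91 ± 0.08 CPM with MS023. AGER, the gene of the receptor RAGE, rose from 2.22 to 3.27 CPM with GSK591 (edgeR adjusted p = 3.64e-03), a rise that limma on FPKM did not call.

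Cell cycle genes were also lower in GSK591 cells. Of 45 tested genes, 44 fell with GSK591 and CCNE1 rose (median log2 change -0.78). TOP2A, the topoisomerase of mitotic chromosomes, fell from 1242 ± 51.4 to 473 ± 3.32 CPM, and PTTG1, the gene of securin, from 89.2 ± 7.29 to 32.8 ± 1.68 CPM. With MS023 23 of the 45 fell and 7 rose (median -0.14); KIF20A fell by 0.52 ± 0.04 while E2F2 rose by 0.41 ± 0.06. The part of the cell cycle genes in the changes of the 10 genes was not tested.

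Of 29 tested genes linked to arrest and senescence, 16 rose and 9 fell with GSK591 (median 0.34), and 6 rose and 14 fell with MS023 (median -0.23); over all tested genes 62.6% and 51.0% were called. CCL2, a chemokine, rose from 0.793 to 5.51 CPM with GSK591. CDKN1A, the gene of the cell cycle inhibitor p21 and named here after its values were seen, rose from 58.5 ± 3.55 to 266 ± 1.52 CPM with GSK591 (2.18 ± 0.04, edgeR adjusted p = 1.46e-13) and measured 55.2 ± 0.60 CPM with MS023 (adjusted p = 0.106). CDKN2A and CDKN2B, the genes of p16 and p15, had no count in any library, DMSO included. They were not tested, and their absence says nothing about the inhibitors. GDF15 rose under both inhibitors, IGFBP3 fell under both, and PLAU, the urokinase gene, rose with GSK591 from 43.5 ± 1.46 to 102 ± 4.72 CPM and fell with MS023 to 10.6 ± 0.15 CPM.

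**Figure D4:**
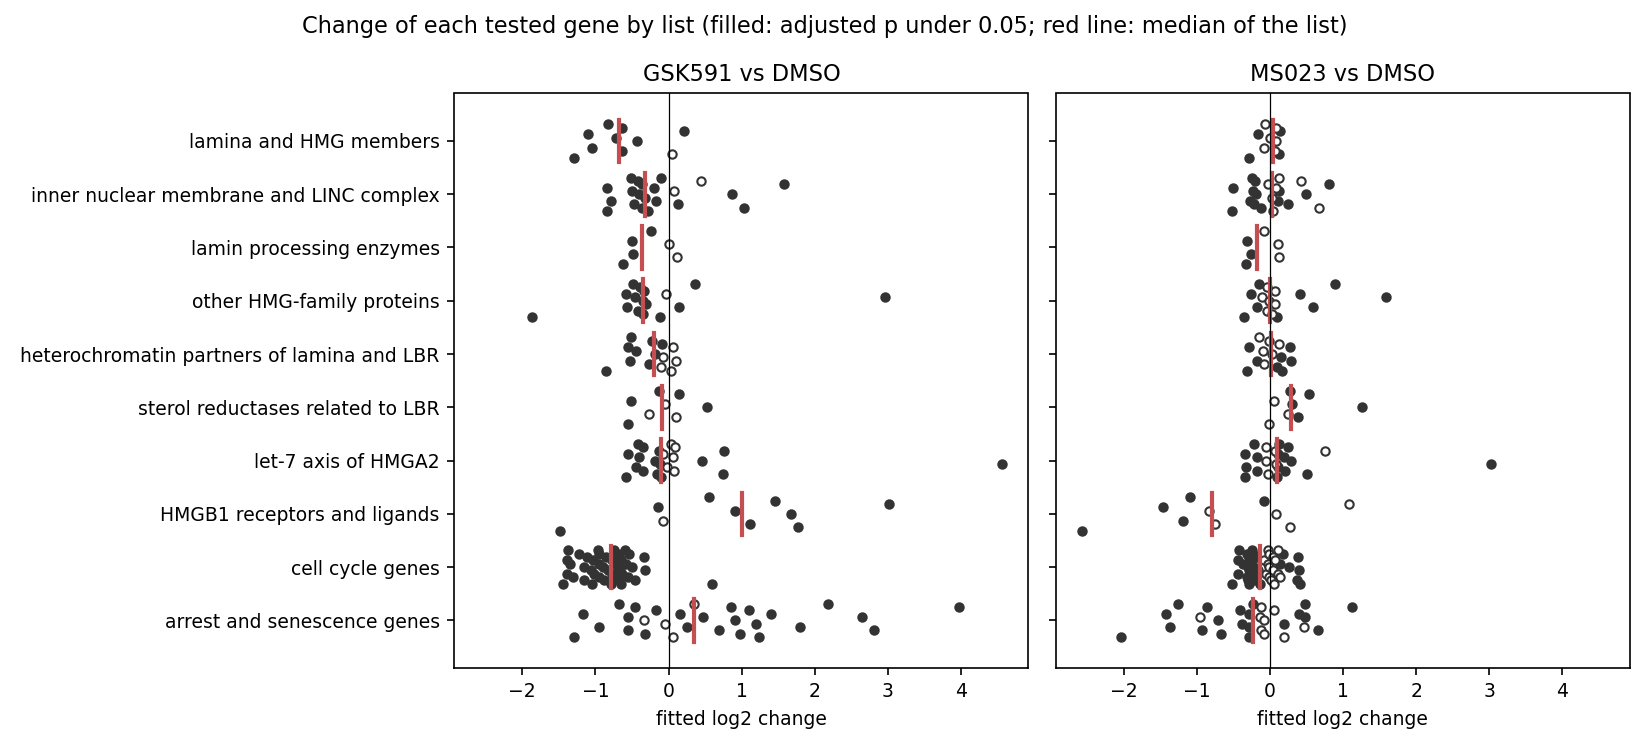
Fitted log2 change of each tested gene against DMSO with GSK591 (left) and MS023 (right), by gene list; filled points passed an adjusted p under 0.05, open points did not, and red lines are list medians. With GSK591 the cell cycle genes (median -0.78) and the lamina and HMG genes (-0.68) lie furthest left among the lists, and with MS023 their medians are -0.14 and 0.04.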

How the data were processed

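Ribosomal RNA was removed from total RNA of 9 A549 samples (DMSO, GSK591 and MS023, 3 each) and paired-end libraries were primed with random hexamers, per the labels' protocols. The submitters' processing notes name cutadapt, STAR, featureCounts, DESeq2 and the build hg19, with no versions. The authors deposited a table of whole-number read counts per gene for all libraries, and an FPKM table per library made with Cufflinks, per the file headers. FPKM values are scaled by the authors for transcript length and library depth. Whether counting used the strand is not given in the sources used here. Table columns were matched to samples by their names, and gene symbols came from the FPKM tables by identifier; 108 identifiers that stood on several FPKM lines were left out of FPKM values.

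Counts were tested with edgeR 4.0.16 (R 4.3.3): TMM scaling, filterByExpr (minimum count 10, minimum total 15), quasi-likelihood test over all 9 libraries with group as the only factor, and Benjamini-Hochberg adjustment over 18292 genes at 0.05. The SE is the log2 change divided by the square root of F. Alternatives were other scalings (RLE, total counts), other filters (none, 1 CPM in 3 libraries), a replicate block, only the 6 libraries compared, leaving out libraries, DESeq2 1.42.0, an adjusted p under 0.01, glmTreat against log2 0.5, and limma 3.58.1 on log2(FPKM + 1) or log2(FPKM + 0.1) with genes of at least 1 FPKM or all genes. The script was tested on simulated counts in which few genes changed. Many more were called in these data, so that test does not measure the share of false calls here. Pairing by replicate number was not evident: deviations of same-numbered libraries correlated between -0.43 and 0.26 over 9 pairs. With 3 libraries per group, such correlations cannot settle whether samples were paired. Replicates of a group differed by more than sampling noise. Exon lengths came from GENCODE 29, and promoters from RefSeq (GRCh38.p14).

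The 10 genes and the gene lists were chosen with earlier results of these data known. Beyond the 10 genes, the text names up to 2 higher and 2 lower genes per list and inhibitor (called, at least 1 CPM, groups not overlapping, largest change) and the 2 genes with the nearest profile among genes of at least 5 CPM. Some genes picked by that rule are not reported here.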

Additional observations from a re-analysis of the deposited data

Results flagged for a closer look

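For 3 of the 10 genes, both inhibitors gave called changes against DMSO in opposite directions, and the direct test between the inhibitors passed as well. LMNA rose by 0.21 with GSK591 and fell by 0.29 with MS023, a log2 difference of -0.50 (MS023 minus GSK591). LMNB1 fell by 0.83 with GSK591 and was 0.12 higher with MS023, a difference of 0.95. HMGB3 fell by 1.29 with GSK591 and was 0.14 higher with MS023, a difference of 1.43. The 2 comparisons share the DMSO libraries, and the direct test does not use them for its estimate. Opposite calls were made for 13.4% of all tested genes. The MS023 calls of LMNB1 and HMGB3 are the ones that single libraries can end, as given with their values in the results.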

How the results depend on the processing

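In GSK591 against DMSO, the 8 genes called lower stayed at 8 under every leave-one-out fit, and those called higher ranged from 1 to 2; in MS023 against GSK591 the counts stayed at 8 higher and 1 lower. For MS023 against DMSO the leave-one-out counts ranged from 0 to 3 higher and from 2 to 3 lower. The 2 genes called higher with MS023 became 1 with the replicate block, where HMGB3 was lost (adjusted p = 0.0615), 0 at an adjusted p under 0.01, and 1 on log2(FPKM + 0.1) and 1 on log2(FPKM + 1) without a filter, where LMNB1 and HMGB3 were both lost and LBR was the gene called; the block changed no other call of the 10 genes. Against a change of log2 0.5 (glmTreat), the counts became 0 higher and 7 lower with GSK591 (LMNA and HMGA2 lost), 0 higher and 0 lower with MS023, and 6 higher and 0 lower in MS023 against GSK591 (LMNB2, HMGA2 and LMNA lost). HMGA1 in MS023 against GSK591, not called, changed sign with the filter of 1 CPM (-0.0074) and lay between -0.0058 and 0.073 in leave-one-out fits. HMGA2 with MS023, not called, was -0.0012 without DMSO replicate 1 and GSK591 replicate 3 together, -0.0524 on log2(FPKM + 1) with and without a filter, -0.0554 on log2(FPKM + 0.1), and between -0.016 and 0.044 in leave-one-out fits. The causes were not tested. Of 660 values of the 10 genes under alternatives, 612 kept their direction and side of the threshold. LBR with MS023 passed in 9 of 22 alternatives, LMNB2 in 3. Filtered FPKM moved the median of all genes in GSK591 against DMSO by -0.10 (pseudocount 1) and -0.11 (0.1), and 34.7% and 34.6% of calls were then higher against 48.2% in counts; in MS023 against GSK591 63.4% and 63.5% were higher against 51.5%. Relative to that shift the directions of the 9 called genes with GSK591 were the same. In the gene lists, 207 of 1716 counts moved by over 1.5 times, or between 0 and any other count.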
